A study of Mus musculus with 2084 samples.

Results

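Transit-amplifying progenitors (TAP) are the cycling intermediate cells of the adult mouse ventricular-subventricular zone (vSVZ). All 126 cells that the submitters labelled TAP were taken, whatever their genotype or treatment, out of 1981 labelled cells with a transcriptome in the count table. The RNA came from a combined transcriptome and epigenome assay on single sorted cells (scNMT-seq), with full-length complementary DNA made by Smart-seq3. A letter in the cell names (pA to pM) marks a biological replicate of 1 or more mice.

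The TAP came from 6 letters and 4 arms. Letter pJ gave 21 TAP of mice labelled TiCY-IFN(A/G)R KO at 2 days post ischemia and 9 TAP of naive mice labelled IFN(A/G)R KO, so these arms differ in ischemia and in the TiCY label. Letter pM gave 8 TAP of naive TiCY mice. The naive WT letters gave 2 (pB), 12 (pC), 71 (pD) and 3 TAP (pE), and pA gave none of its 47 labelled vSVZ cells. TiCY mice carry a tamoxifen-inducible Cre that is active in neural stem cells expressing Tlx (the gene Nr2e1), and it switches on eYFP in those cells and their progeny. By the protocols they received tamoxifen at 2 months of age and both carotid arteries were occluded 2 weeks later in the ischemia arm. WT mice had neither tamoxifen nor ischemia. The ages of the mice at the time of sorting are not given in the labels of these arms, and some plates pooled mice. Sorts differed too: all 71 TAP of pD came from a GLAST sort, those of pM and pJ from a sort named SVZ_Glast, and those of pC from sorts named ASTRO (7 cells) and NB (5 cells). The tissue label is vSVZ for pB to pD, and striatum together with vSVZ for pE, pM and pJ.

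In the adult vSVZ, quiescent neural stem cells (qNSC) enter the cell cycle as active neural stem cells (aNSC). These give rise to TAP, which divide a limited number of times and produce neuroblasts. Neuroblasts migrate to the olfactory bulb and become interneurons, and factors of the Dlx and Sp families drive that fate. Stem cells share many genes with astrocytes, among them Slc1a3, which encodes the glutamate transporter GLAST used in the sorts.

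The 126 TAP libraries ranged from 8247 to 1778312 counts, with a median of 129739, and detected between 2491 and 10660 genes each (median 4567.5). Counts of the TAP of a letter and arm were summed, giving 3510631 counts in pJ 2 d, 1155772 in pJ naive, 1295851 in pM, 1948301 in pB, 1716193 in pC, 8243652 in pD and 4369261 in pE. Levels below are CPM, counts of a gene scaled to a common total per sum. They are not corrected for gene length, so each gene is compared with itself only. The 2 TAP of pB make too small a sum for the fit, which took sums of at least 3 cells. Where they are labelled in the same letter, aNSC, neuroblasts and qNSC2 (a class of quiescent stem cells in the labels) were summed in the same way. Cells of 1 sum share mice and plates, so fewer cells in a state and less RNA per cell cannot be told apart in a sum.

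TAP held all 5 markers of the class in every sum. Mki67, the proliferation antigen Ki-67, stood at 1711 CPM in pJ 2 d TAP, 1029 in pJ naive, 3181 in pM, 2252 in pB, 741.2 in pC, 708.8 in pD and 2122 in pE. The same letters and arms gave 2.458, 62.85, 585.2, 0, 3.734, 352.4 and 414 CPM in aNSC, so TAP and aNSC did not overlap. Top2a, the topoisomerase that untangles chromosomes before division, stood at 396.8 to 3831 CPM over the 6 TAP sums of the fit (median 2080), against 26.14 to 365.1 CPM in aNSC (median 210.8). Cenpf, a kinetochore protein of dividing cells, stood at 343.2 to 2208 CPM in TAP (median 762.1) and 15.98 to 253.8 CPM in aNSC (median 69.55). For all 3 genes every TAP sum was above every aNSC sum. The share of all genes without overlap is not given, so such statements, here and below, only describe the genes named.

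The remaining markers belong to the neuronal lineage. Dlx1, a homeobox factor of interneuron fate, stood at 580.5 CPM in pJ 2 d TAP, 260.4 in pJ naive, 454.5 in pM, 790.4 in pB, 974.8 in pC, 405.2 in pD and 478.1 in pE. In aNSC of the same order it was at 53.84, 0, 0, 1.099, 48.54, 73.73 and 145.2 CPM. Dcx, the microtubule-binding protein doublecortin of migrating neuroblasts, stood at 130.7, 79.6, 47.85, 1423, 411.4, 115.5 and 374.4 CPM in TAP of that order. It reached at most 8.151 CPM in the aNSC sums, all of which lay below every TAP sum. In neuroblasts Dcx stood at 561.7 CPM in pJ 2 d, 461.3 in pJ naive, 654.8 in pM, 4229 in pB, 1187 in pC and 244.1 in pD, and within each of these letters TAP lay lower. The label TAP thus went with cell cycle genes above aNSC and with Dcx between aNSC and neuroblasts in each letter that has all 3 types.

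**Figure D1:**
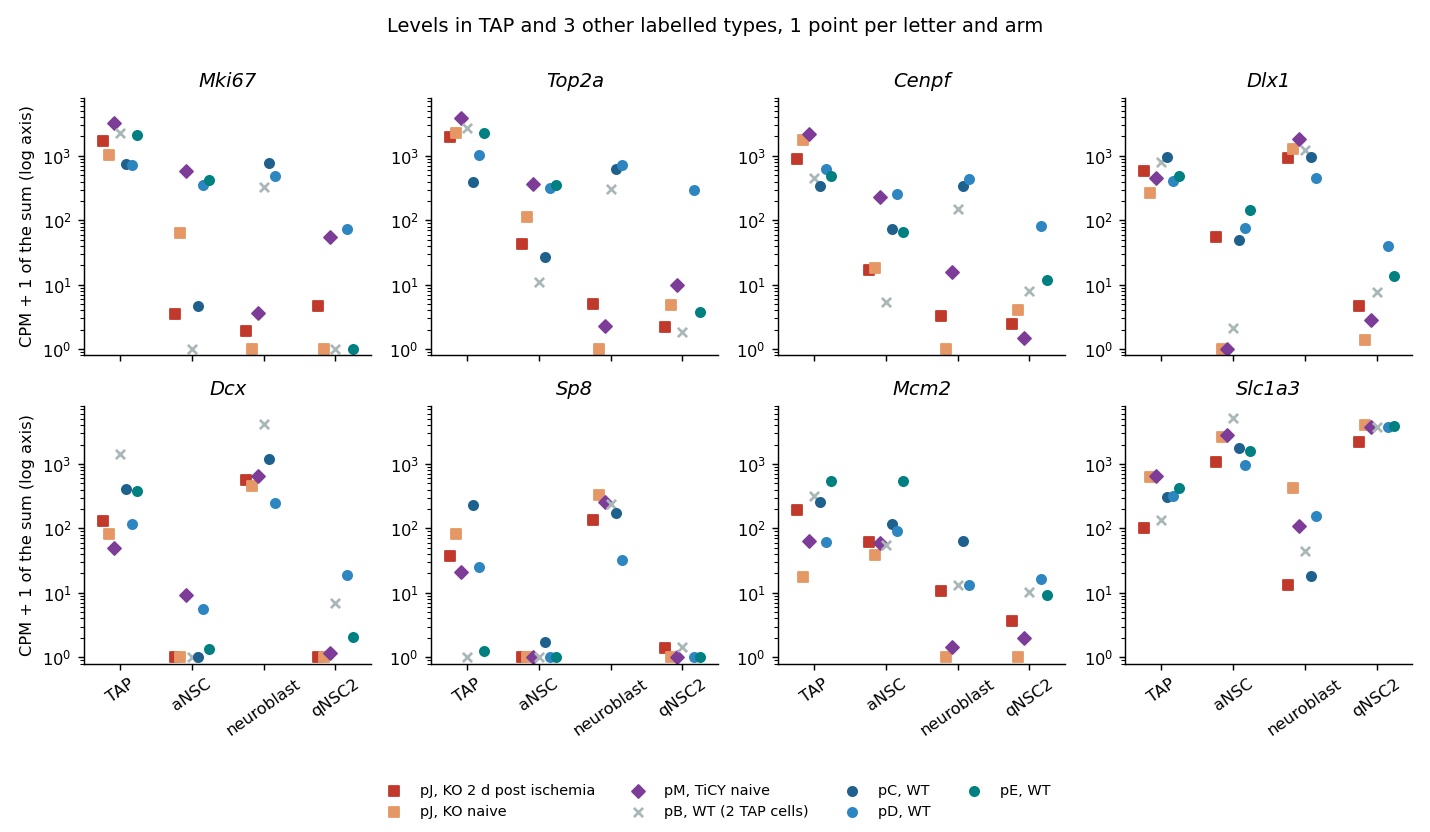
Levels of 8 genes in TAP, aNSC, neuroblasts and qNSC2, as CPM + 1 on a log axis, with 1 point per letter and arm and no error bar. TAP sit high for Mki67, Top2a and Cenpf (708.8 to 3181 CPM for Mki67 in the sums of the fit), while the neuroblast sums of pM and pJ sit at or near 0 for these genes. pE has no neuroblasts, and pB was outside the fit.

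Cells were thinned to 20000 counts to count those with a gene, which left 120 TAP (6 were too shallow). An Mki67 count was found in 93 of 120 TAP (77.5%, exact 95% interval 69.0 to 84.6%), 41 of 115 aNSC (35.7%), 14 of 145 neuroblasts (9.66%) and 0 of 62 oligodendrocytes, a class that should lack it. Dlx1 was found in 88 of 120 TAP (73.3%), 27 of 115 aNSC (23.5%), 144 of 145 neuroblasts (99.3%) and 0 of 62 oligodendrocytes. Dcx was found in 62 of 120 TAP (51.7%, 42.4 to 60.9%), 6 of 115 aNSC (5.22%), 138 of 145 neuroblasts (95.2%) and 1 of 62 oligodendrocytes (1.61%). By number of cells, TAP lay between aNSC and neuroblasts for Dlx1 and Dcx, and above both for Mki67. Intervals cover counting error only, and reads of a library without molecule counting are not independent molecules.

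Promoters of the cell cycle genes are shown because division marks the class and the control elements of these genes are known. Genes of G2 and mitosis are often controlled through the CHR element, TTTGAA, and through the CCAAT box, and genes of DNA replication through E2F sites. Each sequence is the 200 bases before the gene's start in RefSeq (GRCm38.p6, minus strand, written 5′ to 3′ along the gene). Capitals mark matches on either strand to these elements, with TTTGGCGC, TTTCCCGC, TTTCGCGC and TTTGCCGC searched for E2F, and matches may overlap.
Top2a, chr11:99024190-99024389: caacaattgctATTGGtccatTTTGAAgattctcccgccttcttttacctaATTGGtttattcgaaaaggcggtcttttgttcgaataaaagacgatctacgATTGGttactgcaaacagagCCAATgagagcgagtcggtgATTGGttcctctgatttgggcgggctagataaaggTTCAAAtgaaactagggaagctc
Cdk1, chr10:69352913-69353112: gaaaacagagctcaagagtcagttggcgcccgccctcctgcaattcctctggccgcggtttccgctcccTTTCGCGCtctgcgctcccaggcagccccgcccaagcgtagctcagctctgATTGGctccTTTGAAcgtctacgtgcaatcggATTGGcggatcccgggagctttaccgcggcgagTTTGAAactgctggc
Mki67, chr7:135716380-135716579: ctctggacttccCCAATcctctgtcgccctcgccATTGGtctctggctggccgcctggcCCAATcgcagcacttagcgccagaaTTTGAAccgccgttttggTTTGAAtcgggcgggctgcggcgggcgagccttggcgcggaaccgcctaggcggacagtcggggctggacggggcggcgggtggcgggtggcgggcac
Mcm6, chr1:128359706-128359905: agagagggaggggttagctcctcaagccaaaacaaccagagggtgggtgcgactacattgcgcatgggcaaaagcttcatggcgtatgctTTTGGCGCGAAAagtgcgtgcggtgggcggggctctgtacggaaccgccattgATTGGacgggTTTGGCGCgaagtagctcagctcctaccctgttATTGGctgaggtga

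The first 3 genes act in G2 and mitosis or mark cycling cells, and each holds 2 CHR matches in this window. Mcm6, a subunit of the replicative helicase, holds no CHR match and 3 E2F matches. Over the lists, a CHR match stood in 39.1% of 23 G2 and mitosis promoters, 9.09% of 22 replication promoters and 12.7% of all 27025 promoters. A CCAAT box stood in 82.6%, 63.6% and 30.0% of the same groups, and an E2F match in 4.35%, 27.3% and 1.63%. A match is a run of letters and not a bound site.

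TAP were compared with aNSC of the same letters, the step from stem cell to progenitor. Some genes of mitosis and of the neuronal lineage were higher in TAP, and a smaller number, among them the astrocyte gene Slc1a3, were lower. The test was edgeR's quasi-likelihood F test on sums of 6 TAP and 6 aNSC, with Benjamini-Hochberg adjustment over 14351 genes. At an adjusted p below 0.05, 84 genes differed, of which 54 were higher (0.376% of those tested) and 30 lower in TAP (0.209%), and 1595 had an unadjusted p below 0.05. With a term for each letter and arm the count was 190, including all 84. The count depended on letter pJ. It was 0 without pJ (876 genes at an unadjusted p below 0.05), 1 without pJ 2 d and 20 without pJ naive. Without pM it was 34 and without pE 41. Leaving out pJ removes the sums of both its arms, and fewer sums cannot be told apart from a trait of pJ here. All 83 called genes tested without pJ kept their direction, in sums that were part of the fit. All 20 calls of genes named for this comparison were lost without pJ. In the WT letters alone no gene passed in edgeR's test, with 608 at an unadjusted p below 0.05. Chance alone gives about 1 in 20 of the genes tested at such a p. All 81 called genes tested there kept their direction. These WT sums were part of the fit that called the genes, so this is no separate support.

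Of 28 genes of G2 and mitosis, 8 rose in TAP relative to aNSC and none fell, with a list median of 4.24 on the log2 scale against -0.04 over all genes. Ube2c, a ubiquitin-conjugating enzyme of mitotic exit, stood at 394.5 CPM in pJ 2 d TAP, 239.7 in pJ naive, 157.4 in pM, 78.66 in pC, 425.9 in pD and 215.6 in pE, against 0, 0, 4.347, 6.721, 57.43 and 1.92 CPM in aNSC. Its log2 fold change was 7.26 ± 1.32 (SE, adjusted p = 0.0137). Every TAP sum lay above every aNSC sum. Plk1, a mitotic kinase, was at 4.079 to 170.4 CPM in TAP (median 125.5) and 0 to 28.02 CPM in aNSC (median 0; 8.09 ± 1.70, adjusted p = 0.0296). Kif23, a kinesin of the dividing cell's midbody, was at 60.6 to 612.6 CPM in TAP and 0 to 111 CPM in aNSC (7.17 ± 1.64, adjusted p = 0.0486). Birc5, Kif11, Hmmr, Cdc20 and Smc4 also rose. The call of Ube2c was lost without pJ or either of its arms, and those of Plk1 and Kif23 also without pE or pM.

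The class markers of division were above aNSC in all 6 letters and arms but did not all pass. Mki67 averaged 1582 ± 963 CPM in TAP and 236.8 ± 247 CPM in aNSC (SD, n = 6 each), with a log2 fold change of 4.02 ± 1.50 and an adjusted p of 0.262 in edgeR's test. The aNSC sums ran from 2.458 CPM in pJ 2 d to 585.2 CPM in pM. Top2a had 4.09 ± 1.25 (adjusted p = 0.141) and Cdk1, the kinase that starts mitosis, 3.15 ± 1.22 (adjusted p = 0.292). Cenpf had 4.66 ± 1.14 (adjusted p = 0.0573), and with a term for each letter and arm its adjusted p was 0.0477.

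Of 28 DNA replication genes none passed between TAP and aNSC in edgeR's test, and the list median was 0.78. All 28 fitted values were above 0, against 6969 of all 14351 genes tested. Mcm2, a subunit of the replicative helicase, stood at 16.44 to 533.3 CPM in TAP (median 126.6) and 37.92 to 549.6 CPM in aNSC (median 76.14), ranges that overlap almost entirely (0.22 ± 0.71, adjusted p = 0.968). Its sign changed to -0.11 without the 2 d arm of pJ and to -0.02 in the TiCY and KO letters alone. Ccnd2, a D-type cyclin of G1, was at 3235 to 13230 CPM in TAP and 3632 to 7111 CPM in aNSC (0.82 ± 0.23, adjusted p = 0.107, or 0.0262 with a term for each letter and arm).

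Some interneuron and neuroblast genes were higher in TAP than in aNSC. Of 15 Dlx and Sp genes, 6 rose and none fell (median 4.46), and of 22 neuroblast genes 8 rose and none fell (median 2.22). Sp8, a zinc finger factor of olfactory bulb interneurons, stood at 36.75 CPM in pJ 2 d TAP, 81.33 in pJ naive, 20.06 in pM, 228.4 in pC, 23.78 in pD and 0.2289 in pE. Over all 6 aNSC sums it had 1 count, against 838 counts in TAP, a ratio of CPM of 791 (95% counting interval 142 to 31300; adjusted p = 0.000651). The pE sum of 3 TAP stood apart with its 1 count.

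Gad1, which makes the transmitter GABA, had 550 counts over the TAP sums and 2 over the aNSC sums, a ratio of 260 (71.5 to 2150; adjusted p = 0.0154). Dlx2, a homeobox factor upstream of interneuron fate, was at 13.1 to 255.4 CPM in TAP (median 33.11) and 0 to 43.83 CPM in aNSC (median 0.3184; 4.74 ± 1.00, adjusted p = 0.0311). Its call was lost on leaving out any single letter or arm. Dlx1 had 4.04 ± 0.95 with an adjusted p of 0.0507, or 0.0337 with a term for each letter and arm.

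Dcx rose in all 6 letters and arms (6.79 ± 1.27, adjusted p = 0.016). Stmn2, a regulator of microtubules in growing neurites, stood at 352.1 CPM in pJ 2 d TAP, 46.72 in pJ naive, 130.4 in pM, 1759 in pC, 239.1 in pD and 0.4577 in pE, against 7.129, 0, 0, 1.494, 9.423 and 0 CPM in aNSC (6.76 ± 0.86, adjusted p = 0.000651). Its call was lost only without pJ among the letters and arms left out. Nrxn3, a presynaptic adhesion protein, was at 79.88 to 399.6 CPM in TAP and 2.717 to 59.6 CPM in aNSC (4.12 ± 0.59, adjusted p = 0.00182). Tuba1a, an alpha tubulin of young neurons, was at 2350 to 8614 CPM in TAP (median 3886) and 910.2 to 3226 CPM in aNSC (median 1339; 1.64 ± 0.26, adjusted p = 0.00393).

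A pair of broadly expressed genes differed with little spread between letters. Calm2, a calmodulin, was at 462 to 631.8 CPM in TAP and 111.6 to 199.4 CPM in aNSC (1.88 ± 0.31, adjusted p = 0.00487). H3f3b, a gene of the replacement histone H3.3 with near-identical copies in the genome, was at 1186 to 2862 CPM in TAP and 282 to 914.7 CPM in aNSC (1.83 ± 0.29, adjusted p = 0.00381). The groups did not overlap for either gene.

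Among genes lower in TAP, Cpe, a carboxypeptidase that processes peptide hormones, stood at 234.7 CPM in pJ 2 d TAP, 532.1 in pJ naive, 645.1 in pM, 124.1 in pC, 138.2 in pD and 216.1 in pE, against 1236, 1972, 1857, 1457, 423.7 and 1660 CPM in aNSC. It fell by 2.18 ± 0.32 on the log2 scale (adjusted p = 0.00182), and TAP lay below aNSC in every letter and arm. Ndrg2, an astrocyte gene linked to reduced proliferation, fell by 2.06 ± 0.31 (adjusted p = 0.00182) at 69.5 to 224.5 CPM in TAP and 247.1 to 1113 CPM in aNSC. Pbxip1, which binds PBX homeobox factors, fell by 3.34 ± 0.59 (adjusted p = 0.0121), and Cd81, a tetraspanin of the cell surface, fell by 1.33 ± 0.25 (adjusted p = 0.016). Dusp3, a phosphatase that acts on MAP kinases, fell by 5.43 ± 1.02 (adjusted p = 0.016).

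A few astrocyte and fatty acid genes also fell. Of 19 astrocyte genes only Slc1a3 passed, while all 19 fitted values were below 0 (median -2.51), against 7382 of all 14351 genes tested. Slc1a3 stood at 98.84 CPM in pJ 2 d TAP, 617.8 in pJ naive, 659.8 in pM, 301.8 in pC, 315.6 in pD and 419.8 in pE, against 1079, 2604, 2853, 1792, 972.8 and 1588 CPM in aNSC, and it fell by 2.20 ± 0.46 (adjusted p = 0.0289). Cells of pD, pM and pJ were sorted on GLAST, the protein of Slc1a3, so this gene also touches how cells entered the study. Of 22 fatty acid oxidation genes 1 fell (Ppara) and none rose (list median -0.60), and none of 20 cholesterol synthesis genes passed (median -0.07). Slc27a1, a fatty acid transporter, fell by 2.78 ± 0.49 (adjusted p = 0.0121). Ppara, a nuclear receptor that switches on fatty acid oxidation, had 0 counts in all 6 TAP sums, and aNSC were at least 172-fold higher against a floor of 3 counts over the TAP sums (adjusted p = 0.0343). Of 18 quiescence genes, 1 fell (Cpe) and none rose (median -1.40).

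Genes of the activated state did not pass between TAP and aNSC. None of 16 activated stem cell and TAP factors was called (median -0.56). Egfr, the receptor for epidermal growth factor that marks activated stem cells and TAP, stood at 104.3 to 744.7 CPM in TAP (median 264.4) and 260.3 to 1851 CPM in aNSC (median 511.5). TAP lay below aNSC in all 6 letters and arms, with -1.18 ± 0.95 and an adjusted p of 0.75 in edgeR's test. Also with no call were 16 Notch genes (median -1.21), 30 ribosomal protein genes (median -0.03) and 21 interferon-stimulated genes (median -0.06).

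**Figure D2:**
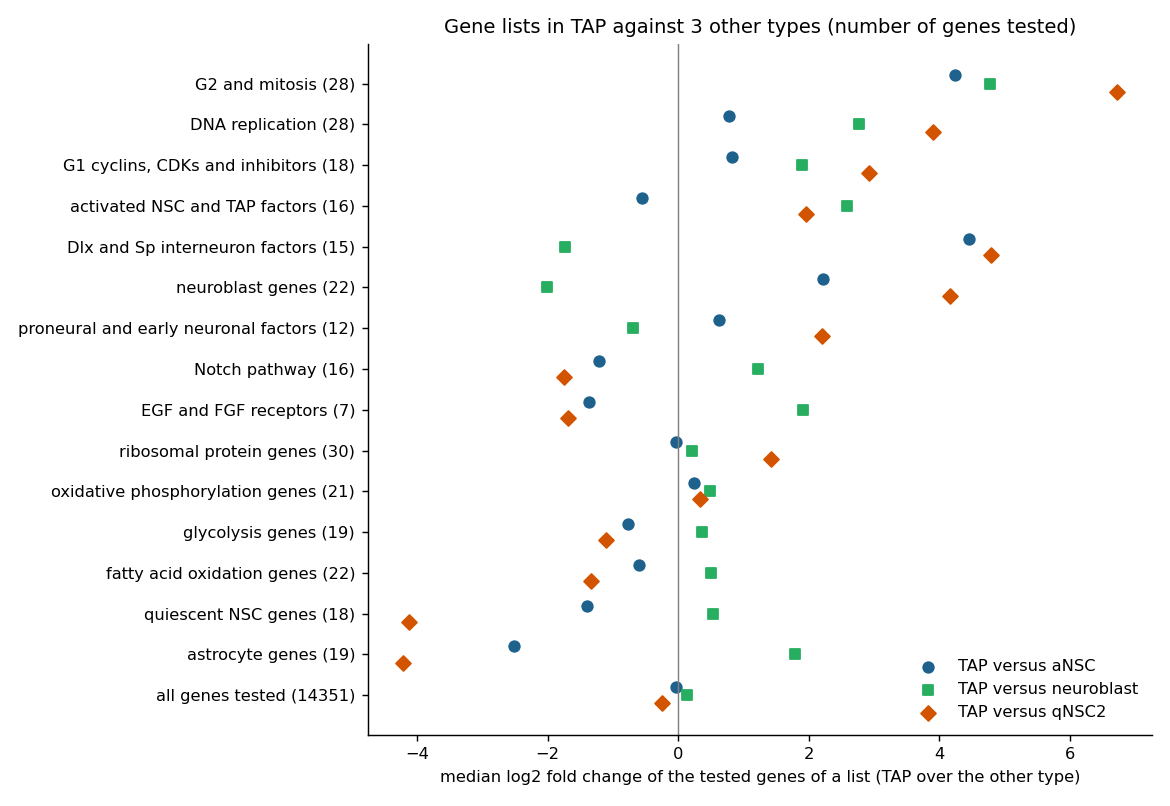
Median log2 fold change of the tested genes of 15 lists and of all genes, with TAP over aNSC (circles), neuroblasts (squares) and qNSC2 (diamonds), and the number of genes in parentheses. G2 and mitosis genes lie right of 0 in each comparison (4.24, 4.78 and 6.72), while neuroblast genes lie right of 0 against aNSC (2.22) and left of 0 against neuroblasts (-2.01).

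Against neuroblasts, their progeny, TAP had higher levels of some cell cycle and stem cell genes and lower levels of some neuronal genes. The same fit set 6 TAP sums against 5 neuroblast sums, as pE has no neuroblasts. At an adjusted p below 0.05, 117 of 14351 genes differed, with 83 higher (0.578%) and 34 lower in TAP (0.237%), and 2255 had an unadjusted p below 0.05. A term for each letter and arm gave 250, of which 114 were among the 117. The count was 0 without pJ (1102 genes at an unadjusted p below 0.05), 3 without pM, 14 without pJ 2 d, 25 without pJ naive, 322 without pC and 364 without pD. All 23 calls of genes named for this comparison were lost without pJ. In the WT letters alone no gene passed in edgeR's test, with 467 at an unadjusted p below 0.05, where chance gives about 1 in 20 genes. All 108 called genes tested there kept their direction, but these sums were part of the fit that called them. In the TiCY and KO letters alone 519 passed.

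Replication and G1 genes differed from neuroblasts as follows. Of 28 replication genes 2 rose (Mcm2 and Pold1) and none fell, with a median of 2.77 against 0.13 over all genes. Mcm2 stood at 190 CPM in pJ 2 d TAP, 16.44 in pJ naive, 63.28 in pM, 259.3 in pC, 59.8 in pD and 533.3 in pE, against 9.783, 0, 0.4409, 63.52 and 12.21 CPM in neuroblasts of pJ 2 d, pJ naive, pM, pC and pD. Its log2 fold change was 3.61 ± 0.84 (adjusted p = 0.0417), and TAP were higher in all 5 letters and arms with both types.

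Pold1, a subunit of the replicative polymerase delta, had 3.30 ± 0.70 (adjusted p = 0.0261) at 42.54 to 213.9 CPM in TAP and 1.93 to 33.3 CPM in neuroblasts. Of 18 G1 genes 2 rose and none fell (median 1.89). These were Ccnd1, a D-type cyclin (4.34 ± 0.95, adjusted p = 0.0304), and Cdk6, its kinase partner (3.79 ± 0.76, adjusted p = 0.0170). Cdk6 was at 305.4 to 1446 CPM in TAP and 0 to 277.4 CPM in neuroblasts, with no overlap.

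Of 28 genes of G2 and mitosis, 2 rose and none fell against neuroblasts. All 28 fitted values were above 0 (median 4.78), against 7838 of all 14351 genes tested. The 2 called genes were Ube2c (6.62 ± 1.41, adjusted p = 0.0258) and Hmmr, a spindle protein (7.48 ± 1.75, adjusted p = 0.0430, or 0.0651 with a term for each letter and arm). Ube2c was higher in 4 of 5 letters and arms, as pC had 78.66 CPM in TAP and 125.5 CPM in neuroblasts. Mki67 averaged 1582 ± 963 CPM in TAP (SD, n = 6) and 253.6 ± 361 CPM in neuroblasts (SD, n = 5), with 5.33 ± 1.99 and an adjusted p of 0.187. Top2a had 6.70 ± 1.78 (adjusted p = 0.0712) and Cenpf 5.63 ± 1.42 (adjusted p = 0.0572), so neither passed. The 5 neuroblast sums split by letter for Mki67, at 0.944 CPM in pJ 2 d, 0 in pJ naive and 2.646 in pM, against 781.8 in pC and 482.7 in pD.

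Some genes of stem cells and glia were close to 0 in neuroblasts and higher in TAP. Gli3, a factor of the hedgehog pathway, stood at 12.25 CPM in pJ 2 d TAP, 52.78 in pJ naive, 35.5 in pM, 15.15 in pC, 8.37 in pD and 52.64 in pE, against 0.08582, 0.6434, 0, 0.2252 and 1.11 CPM in neuroblasts of pJ 2 d, pJ naive, pM, pC and pD (6.17 ± 0.91, adjusted p = 0.00194). Thbs4, a secreted thrombospondin of vSVZ stem cells, was at 0.4577 to 52.48 CPM in TAP and 0 in all 5 neuroblast sums, so TAP were at least 114-fold higher against a floor of 3 counts over the neuroblast sums (adjusted p = 0.00194). The groups did not overlap for either gene.

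Pard3b, a cell polarity protein, had 5.12 ± 0.73 (adjusted p = 0.00187) and Nectin3, an adhesion protein, 5.32 ± 0.81 (adjusted p = 0.0022). Arap2, which regulates small GTPases, had 6.82 ± 1.08 (adjusted p = 0.00337). Fam167a had 553 counts over the TAP sums and 1 over the neuroblast sums (adjusted p = 0.00194). Hes6, a factor that promotes neuronal differentiation, was at 249.4 to 646.1 CPM in TAP and 28.95 to 285.2 CPM in neuroblasts (1.99 ± 0.43, adjusted p = 0.0273). Of 16 activated stem cell and TAP factors, 1 rose and none fell, and Hes6 was that gene (list median 2.59). Slc1a3 had 1.79 ± 0.50 with an adjusted p of 0.0815, or 0.0432 with a term for each letter and arm.

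Some neuronal genes were lower in TAP than in neuroblasts. Of 22 neuroblast genes 3 fell (Stmn2, Sox4 and Dlx6os1) and none rose. All 22 fitted values were below 0 (median -2.01), against 6513 of all 14351 genes tested. Dlx6os1 had no count in any WT sum, so its call rests on pM and pJ. Stmn2 stood at 2181 CPM in pJ 2 d neuroblasts, 1670 in pJ naive, 2046 in pM, 2791 in pC and 1049 in pD, above the TAP level of the same letter each time (-3.20 ± 0.75, adjusted p = 0.0445).

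Zfp704, a zinc finger protein, stood at 355.2 CPM in pJ 2 d TAP, 154.9 in pJ naive, 215.3 in pM, 484.2 in pC, 224.7 in pD and 358 in pE, against 1969, 3425, 2362, 1313 and 1363 CPM in neuroblasts of the first 5 (-2.84 ± 0.40, adjusted p = 0.00187). The groups did not overlap. Sox4, a factor of early neurons, was at 196.1 to 2068 CPM in TAP and 2784 to 4347 CPM in neuroblasts (-2.07 ± 0.47, adjusted p = 0.0371). Meis2, a homeobox factor of olfactory bulb interneurons, fell by 1.80 ± 0.39 (adjusted p = 0.0273), and Nfib, a nuclear factor I member, by 1.23 ± 0.27 (adjusted p = 0.0325).

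Fbxo32, a ubiquitin ligase component, fell by 3.57 ± 0.59 (adjusted p = 0.00416) and Ptprs, a receptor phosphatase of axons, by 1.67 ± 0.28 (adjusted p = 0.00416). Sptan1, a spectrin of the membrane skeleton, fell by 1.63 ± 0.29 (adjusted p = 0.0066) and Ttc3, a ubiquitin ligase, by 1.49 ± 0.26 (adjusted p = 0.0066). Plekha1, which binds membrane lipids, fell by 4.82 ± 0.88 (adjusted p = 0.00906). Dcx and Dlx1 did not pass against neuroblasts. Dcx had -1.97 ± 1.04 (adjusted p = 0.365), with TAP lower in all 5 letters and arms, and Dlx1 had -1.73 ± 0.88 (adjusted p = 0.342), with TAP lower in 4 of 5.

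Against qNSC2 the differences were the most numerous of the 3 comparisons. At an adjusted p below 0.05, 2147 of 14351 genes differed, with 953 higher (6.64%) and 1194 lower in TAP (8.32%), for 6 TAP and 5 qNSC2 sums. The median over all genes was -0.24 on the log2 scale and lay between -0.46 and -0.09 with other filters, scalings and tools. Of 22 named calls, 17 held without any single letter or arm. Many of these genes were named for the smallest adjusted p in this fit, so this share does not stand for all calls. Of the 2147 genes, 525 were also called without pJ. The count was 550 without pJ and 1145 without pJ 2 d, and 1419 and 1431 without pE and pM. In the WT letters alone no gene passed in edgeR's test, with 2100 at an unadjusted p below 0.05. All 2031 called genes tested there kept their direction, but these sums were part of the fit that called them.

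All 28 genes of G2 and mitosis and 26 of 28 replication genes rose (medians 6.72 and 3.90). Mki67 was at 0 to 71.72 CPM in qNSC2 (median 3.637), with a log2 fold change of 7.75 ± 1.90 (adjusted p = 0.00795), and Mcm2 at 0 to 15.14 CPM (5.23 ± 0.88, adjusted p = 0.00045). Top2a, Cenpf and Cdk1 rose by 8.10 ± 1.73 (adjusted p = 0.00303), 7.57 ± 1.41 (adjusted p = 0.00104) and 7.70 ± 1.69 (adjusted p = 0.00374). Ccnd2 stood at 13230 CPM in pJ 2 d TAP, 5254 in pJ naive, 6891 in pM, 11690 in pC, 12200 in pD and 3235 in pE, against 767.5, 692.8, 932.3, 1871 and 445.5 CPM in qNSC2 of pJ 2 d, pJ naive, pM, pD and pE (3.04 ± 0.26, adjusted p = 5.44e-07). Every TAP sum lay above every qNSC2 sum for each of these 6 genes. The calls of Mki67, Top2a, Cenpf, Cdk1 and Dcx were lost without pJ.

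Growth and neuronal genes rose with them. Hmgb3, a chromatin protein of progenitors, was at 422.9 to 966.7 CPM in TAP and 27.22 to 73.7 CPM in qNSC2 (3.64 ± 0.32, adjusted p = 5.71e-07). Hnrnpab, an RNA-binding protein, rose by 3.15 ± 0.33 (adjusted p = 5.81e-06) and Tmsb10, which binds actin monomers, by 4.75 ± 0.50 (adjusted p = 5.81e-06). Stmn1, a microtubule regulator, rose by 4.15 ± 0.46 and Jpt1 by 3.78 ± 0.42 (adjusted p = 1.04e-05 each). Of 30 ribosomal protein genes, many of which have near-identical copies, 28 rose and none fell (median 1.43). Of 22 neuroblast genes 17 rose (median 4.16), and of 15 Dlx and Sp genes 10 rose (median 4.79), with none falling in either list. Dcx rose by 6.43 ± 1.28 (adjusted p = 0.00178), Dlx1 by 6.03 ± 1.10 (adjusted p = 0.000919) and Dlx2 by 7.17 ± 1.20 (adjusted p = 0.000447).

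All 19 astrocyte genes and 13 of 18 quiescence genes fell in TAP relative to qNSC2 (medians -4.21 and -4.12), and none rose. Cpe was at 124.1 to 645.1 CPM in TAP and 2299 to 8472 CPM in qNSC2, and fell by 4.17 ± 0.35 (adjusted p = 5.44e-07). Slc1a3 was at 98.84 to 659.8 CPM in TAP and 2176 to 4091 CPM in qNSC2 (-3.40 ± 0.49, adjusted p = 0.000137). Thbs4 was at 0.4577 to 52.48 CPM in TAP and 401.3 to 823.4 CPM in qNSC2 (-5.53 ± 0.77, adjusted p = 0.000183). None of these 3 genes overlapped between the types.

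Ndrg2 fell by 3.64 ± 0.33 (adjusted p = 6.59e-07), Cd81 by 2.83 ± 0.27 (adjusted p = 1.31e-06) and Pbxip1 by 6.24 ± 0.69 (adjusted p = 1.04e-05). Glud1, an enzyme of glutamate breakdown, fell by 3.40 ± 0.40 and Tspan7, a tetraspanin, by 3.09 ± 0.36 (adjusted p = 1.96e-05 each). Metabolic lists fell in part, with 10 of 22 fatty acid oxidation genes (median -1.34) and 7 of 19 glycolysis genes (median -1.10) lower and none higher. Of 16 Notch genes 3 rose and 5 fell (median -1.75). Hes5, a Notch target, had -3.40 ± 1.31 (adjusted p = 0.0865, or 0.0331 with a term for each letter and arm), and Egfr had 1.51 ± 1.06 (adjusted p = 0.379).

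Whether the profile of TAP against another type differed between the TiCY and KO letters (pM, pJ) and the WT letters was tested with an interaction term in the same fit. These letter sets differ in genotype, library, letter and sort, and in part in tamoxifen and ischemia. These factors cannot be told apart in this test. For TAP against aNSC no gene passed in edgeR's test (0.0%), with 432 at an unadjusted p below 0.05 and 36 calls by DESeq2. For TAP against qNSC2 no gene passed either (0.0%), with 589 at an unadjusted p below 0.05 and 98 calls by DESeq2. For TAP against neuroblasts 6 genes passed (0.0418%), with 942 at an unadjusted p below 0.05. Chance alone gives about 1 in 20 of the 14351 genes at such a p, more than the counts against aNSC and qNSC2. Without single letters or arms that count ranged between 0 and 28. The tests against neuroblasts and qNSC2 were added after the data were seen.

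Among them were Nr2e1, Fabp7, Myo10, Mns1 and Tcf7l2, which are named because they passed. Nr2e1, the gene whose expression drives the Cre of TiCY mice, was at 86.59 CPM in pJ 2 d TAP, 171.3 in pJ naive, 177.5 in pM, 12.82 in pC, 30.45 in pD and 114.4 in pE, against 0, 0.6434, 0, 2.703 and 22.19 CPM in neuroblasts of the first 5 (adjusted p = 0.04447). Fabp7, a fatty acid binding protein of neural progenitors, was at 0 to 2.145 CPM in neuroblasts of pM and pJ and at 37.16 and 273 CPM in those of pC and pD (adjusted p = 0.04447). Myo10, an unconventional myosin, had an adjusted p of 0.01701, and Mns1 and Tcf7l2, a factor of Wnt signalling, had 0.04447. For each of these 5 genes the neuroblasts of pM and pJ were at or near 0, so the fitted size depends on the small value that edgeR adds to counts.

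The share of cells with an Mki67 count differed between letters in TAP, neuroblasts and aNSC. Thinned to 20000 counts, TAP with an Mki67 count were 19 of 20 in pJ 2 d, 7 of 8 in pJ naive, 8 of 8 in pM, 2 of 2 in pB, 7 of 10 in pC and 47 of 69 in pD. Neuroblasts with a count were 1 of 64, 0 of 8 and 1 of 14 in pJ 2 d, pJ naive and pM, against 2 of 25, 6 of 27 and 4 of 7 in pB, pC and pD. In aNSC they were 2 of 22, 2 of 6 and 5 of 11, against 0 of 2, 2 of 9 and 28 of 62. The differences in these shares between letters were not tested.

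**Figure D3:**
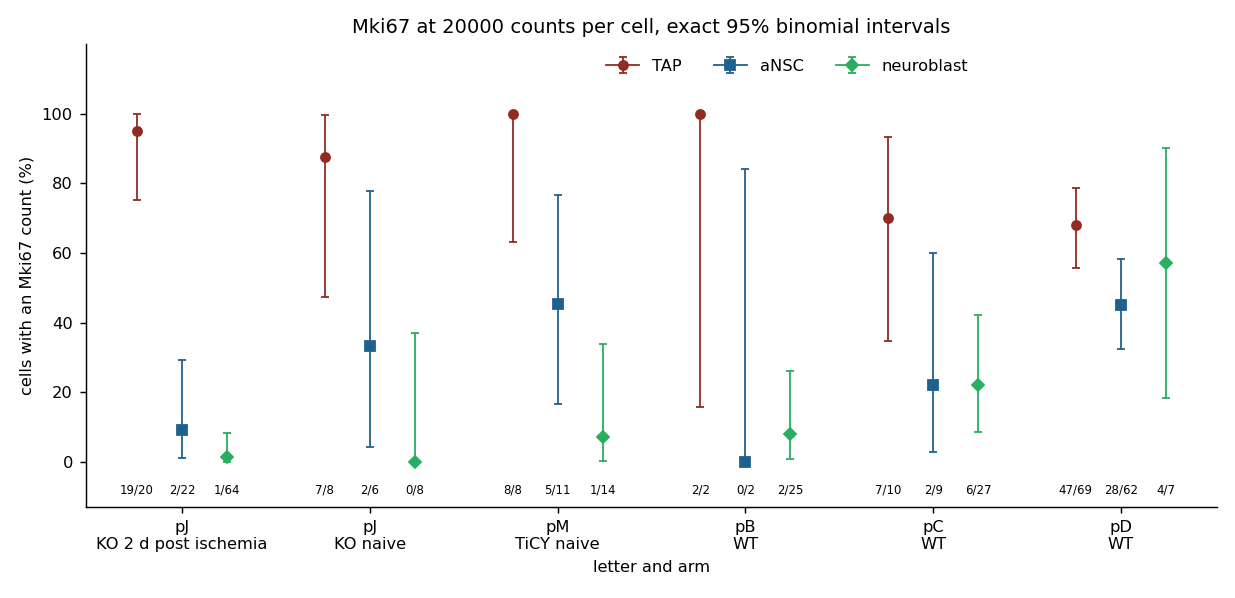
Share of cells with an Mki67 count at 20000 counts per cell, for TAP, aNSC and neuroblasts of 6 letters and arms, with exact 95% binomial intervals and the number of cells under each point. TAP lie highest in every letter and arm (47 of 69 cells in pD, 19 of 20 in pJ 2 d), and neuroblasts of pM and pJ lie near 0. pE, with 3 TAP and no neuroblasts, is not drawn.

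Single TAP spread widely in their place along the lineage. Of the 120 TAP at 20000 counts, 44 held both Mki67 and Dcx, 49 Mki67 alone, 18 Dcx alone and 9 neither. Egfr and Dcx were found together in 29 cells, Egfr alone in 37, Dcx alone in 33 and neither in 21. Cells with the early gene alone, the late gene alone and both thus occurred under 1 label, although a missing count at this depth does not show that the RNA was absent. Slc1a3 was found in 101 of 120 TAP (84.2%), Egfr in 66 (55.0%), Mcm2 in 60 (50.0%), Hes5 in 29 (24.2%) and Thbs4 in 20 (16.7%).

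The list level of a cell, the mean of log2(CPM + 1) over the genes of a list at 20000 counts, showed the same range. In the 69 TAP of pD, the G2 and mitosis level ran from 0.407 to 7.95 (median 4.4) and the neuroblast level from 0.986 to 9.09 (median 4.2). The replication level of those cells ran from 0.259 to 7.59 (median 3.5). Across the same cells the neuroblast level went with the Dlx and Sp level (Pearson r = 0.665, Spearman rho = 0.661) and against the replication level (r = -0.551, rho = -0.576) and the G2 and mitosis level (r = -0.455, rho = -0.37). Cells with higher neuroblast levels thus tended to lower cell cycle levels in pD.

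In the 20 TAP of pJ 2 d the neuroblast level had r = -0.345 with the replication level and -0.0352 with the G2 and mitosis level, and several cells were high in both neuroblast and division genes. Their correlation of the neuroblast and the Dlx and Sp levels was 0.887. Both lists hold Dlx6os1, which had no count in pD TAP but adds to both levels in pJ. In the 10 TAP of pC the neuroblast level had r = -0.78 with replication and -0.701 with G2 and mitosis. Total counts of a cell had r = -0.0535 with the neuroblast level in pD, 0.115 in pJ 2 d and 0.691 in pC, so depth moved with it in pC. These correlations describe cells that share mice and plates, and no p is given.

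**Figure D4:**
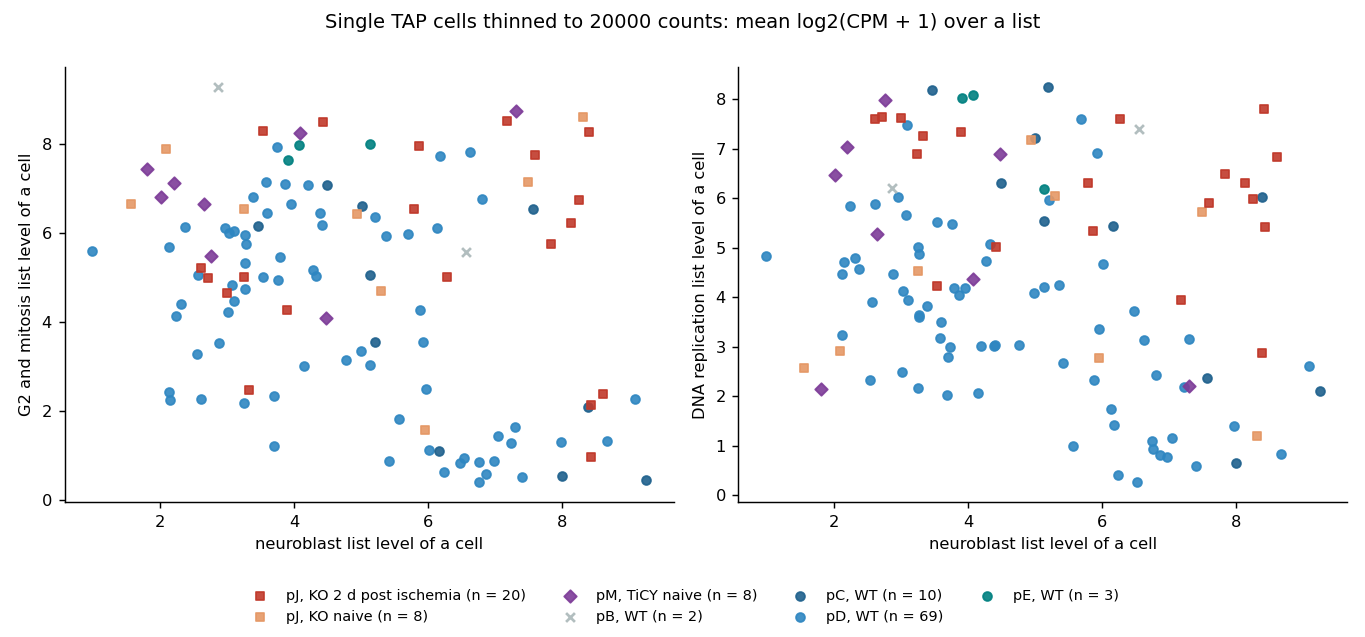
Single TAP at 20000 counts, with the neuroblast list level on the horizontal axes and the G2 and mitosis level (left) or the DNA replication level (right) on the vertical axes, all as mean log2(CPM + 1) over a list. Points are cells of 7 letters and arms. In pD, cells at neuroblast levels above 6 lie mostly at low G2 and mitosis levels (r = -0.455), while several pJ 2 d cells are high on both axes.

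The TAP of pC came from 2 sorts. The 5 cells from the NB sort had 572.8 CPM of Dcx and the 7 from the ASTRO sort 335.2 CPM. Cenpf was at 38.19 and 487.0 CPM in the same order, and Slc1a3 at 20.00 and 434.7 CPM. Single cells weighed on these values, as 1 cell held 65.1% of the Dcx counts of the NB sort, 71.8% of the Cenpf counts of the ASTRO sort and 77.5% of its Slc1a3 counts. Other cell cycle genes were closer, with Top2a at 447.4 and 373.0 CPM, Mki67 at 705.6 and 758.0 CPM and Mcm2 at 247.3 and 264.9 CPM. Dlx1 was at 860.2 and 1029 CPM. With 1 sum a sort there is no test, and the other letters give no TAP from an NB sort.

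The share of TAP among labelled vSVZ cells was 9.21% in pJ 2 d (21 of 228, exact 95% interval 5.79 to 13.7%), 6.72% in pJ naive (9 of 134, 3.12 to 12.4%) and 3.96% in pM (8 of 202, 1.73 to 7.65%). Among WT letters it was 2.99% in pB (2 of 67), 12 of 92 cells in pC (6.93 to 21.7%), 30.6% in pD (71 of 232, 24.7 to 37.0%) and 8.57% in pE (3 of 35). The 0 of 47 cells in pA allow a share of up to 7.55%. The WT letters thus spanned all other arms. These shares follow the sorts, which differ between letters, and make no comparison of arms.

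For the knockout arms the receptor genes were looked at first. The labels name the receptors IFNAR and IFNGR, for which Ifnar1, Ifnar2, Ifngr1 and Ifngr2 code. Ifnar1 had 98 counts in pJ 2 d TAP (27.92 CPM), 0 in pJ naive and 62 in pM (47.85 CPM), and Ifngr1 had 11, 0 and 0 counts. The labels do not give the deleted exons, so counts from other parts of the genes check nothing.

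TAP of KO mice at 2 d post ischemia (21 cells) were set against TAP of naive KO mice (9 cells), with 1 sum each and so no test. These sums differ in ischemia and in the TiCY label, which cannot be told apart here. Many replication and neuroblast genes were higher in the 2 d sum, and many quiescence genes were lower. Of 5152 genes with at least 50 CPM in 1 sum, 776 were at least 2-fold higher (15.1%) and 1071 at least 2-fold lower (20.8%) on the scale of log2(CPM + 5), and the median of all genes was -0.07. Intervals in brackets are exact Poisson 95% intervals and cover counting error only.

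Of 26 replication genes, 13 were at least 2-fold higher and none lower (median 1.00). Mcm2 was at 190.0 CPM [175.8 to 205.0] in 2 d TAP and 16.44 CPM [9.897 to 25.67] in naive TAP (log2 ratio 3.19), with counts in 19 of 21 and 4 of 9 cells. The median of the list was 1.00 in neuroblasts, 0.67 in qNSC2 and 0.28 in aNSC of the same arms. Medians over all genes that passed the TAP level filter were 0.31, 0.10 and 0.09 in that order. The list median thus lay above that of all genes in all 4 types, by little in aNSC. Ccnd2 was at 13230 CPM in 2 d TAP and 5254 CPM in naive TAP (1.33). Of 28 G2 and mitosis genes 3 were lower and none higher (median -0.24), a smaller part than the 20.8% of all genes that were lower. Of 13 G1 genes 5 were higher and 1 lower (median 0.65), and of 9 activated stem cell and TAP factors 5 were higher and 2 lower (median 1.07). In aNSC, neuroblasts and qNSC2 the medians were 0.49, 0.50 and 0.42 for the G1 genes. Those of the activated factors were 0.74, 0.41 and 1.02.

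The class markers moved in unlike directions between these sums. Mki67 was at 1711 CPM [1668 to 1755] in 2 d TAP and 1029 CPM [971.1 to 1089] in naive TAP (0.73), and Cenpf at 896.4 and 1732 CPM (-0.95). Top2a was at 1929 and 2231 CPM in the same order (-0.21). Dlx1 was at 580.5 and 260.4 CPM (1.14), and Dcx at 130.7 and 79.6 CPM (0.68). Of 20 neuroblast genes 10 were higher and none lower (median 0.94). The median of this list was 1.40 in aNSC, 0.93 in qNSC2 and -0.05 in neuroblasts of the same arms, so the shift was not particular to TAP.

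Of 10 quiescence genes, 6 were lower and none higher in the 2 d sum (median -1.49). Slc1a3 was at 98.84 CPM in 2 d TAP and 617.8 CPM in naive TAP (-2.58). It was lower in 2 d aNSC (-1.27), neuroblasts (-4.61) and qNSC2 (-0.91) as well. Sox9, a factor of stem cells and glia, was at 9.97 CPM in 2 d TAP and 198.1 CPM in naive TAP (-3.76). Egfr was at 104.3 and 334.8 CPM (-1.64), but 1 naive cell held 74.4% of the naive counts.

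The largest ratios upward were those of Cnpy4 (253.2 CPM in 2 d TAP and 3.461 in naive TAP), Aunip, which takes part in DNA repair (154.4 and 1.73 CPM), and Tiam2, an activator of the GTPase Rac (485.1 and 16.44 CPM). Ints3, Irf2 and Rnpepl1 had 313, 284 and 274 counts in the 2 d sum and 0 in the naive sum. Irf2, an interferon regulatory factor, was in 14 of 21 cells. The largest ratios downward were those of Rps6ka2, Arhgap5, mt-Rnr1, Sox9, Magt1 and Qk. In naive TAP, 1 cell held 76.9% of the counts of Rps6ka2, 91.6% of mt-Rnr1 and 70.9% of Qk.

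TAP of naive KO mice (9 cells) were set against TAP of naive TiCY mice (pM, 8 cells), again with 1 sum each. These sums differ in the receptor knockout, in the TiCY label and in letter and library, which cannot be told apart here. Of 5310 genes with at least 50 CPM in 1 sum, 1027 were at least 2-fold higher (19.3%) and 975 at least 2-fold lower (18.4%), and the median of all genes was 0.07. Mki67 was at 1029 CPM in KO TAP and 3181 CPM in TiCY TAP (-1.62), where 1 cell held 56.4% of the TiCY counts. Top2a was at 2231 and 3831 CPM (-0.78), Cenpf at 1732 and 2208 CPM (-0.35), and Dlx1 at 260.4 and 454.5 CPM (-0.79), with 74.2% of the TiCY counts of Dlx1 in 1 cell. Dcx was at 79.6 CPM in KO TAP and 47.85 CPM in TiCY TAP (0.68), with 88.7% of the TiCY counts in 1 cell.

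Of 9 DNA methylation genes, 6 were at least 2-fold lower and none higher in KO naive TAP (median -1.66), while the median was -0.08 in aNSC, 0.48 in neuroblasts and -0.10 in qNSC2. In TAP, 2 d against naive gave 3 of 9 higher and none lower (median 0.77). Both comparisons use the same naive KO sum of 9 cells, so these shifts are not independent of each other. In the comparison with TiCY, 5 of 25 replication genes were lower and none higher (median -0.62). Of all genes with at least 50 CPM in 1 sum, 18.4% were lower and 19.3% higher. Of 28 G2 and mitosis genes 2 were higher and 2 lower, and of 18 neuroblast genes 4 were higher and 2 lower. Gad2, which makes GABA, had 143 counts (123.7 CPM) in KO TAP and 0 in TiCY TAP, in 5 of 9 cells. Dlx6, a homeobox factor of interneuron fate, was at 154.9 and 4.63 CPM, with 75.4% of the KO counts in 1 cell. Irf2 had 0 counts in KO naive TAP and 210 in TiCY TAP (162.1 CPM), so it had counts in 2 d KO TAP and TiCY TAP but none in naive KO TAP.

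Rab10os (106.4 CPM in KO TAP and 0 in TiCY TAP), Rps6ka2, Usp45 and Naa38 completed the largest ratios upward. Dock1, an activator of Rac, had 0 counts in KO TAP and 176.7 CPM in TiCY TAP, and Ntng2, Rilpl1 and Vps13d also had 0 counts in KO TAP. Tmem181b-ps, a pseudogene, was at 6.057 CPM in KO TAP and 265.5 CPM in TiCY TAP (-4.61). Its ratio was as low in aNSC (-4.84), neuroblasts (-6.21) and qNSC2 (-4.92), so it differed in every type compared here.

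Markers of cell types that a sort could also hold were low in TAP. Over the 7 TAP sums the summed level was 0.4577 to 36.71 CPM for the microglia list, 3.703 to 102 CPM for the endothelial list, 0 to 7.717 CPM for the pericyte list and 2.06 to 22.81 CPM for the ependymal list. The oligodendrocyte list stood at 17.3 to 132.3 CPM in TAP, against 66820 to 106800 CPM in labelled oligodendrocytes. Sox10, a factor of the oligodendrocyte lineage, had no count in any TAP. The astrocyte list stood at 1346 to 6709 CPM in TAP, against 8423 to 32570 CPM in aNSC, and the neuroblast list at 5966 to 19580 CPM in TAP, against 18710 to 32070 CPM in neuroblasts. The part of TAP with such RNA in the differences above was not tested.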

How the data were processed

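Single sorted cells were processed by scNMT-seq, and their transcriptomes were used here. Each deposited value is a raw read count of a gene in a cell. The submitters' processing notes name STAR, featureCounts and GRCm38 (mm10), without versions. Of 2584 cells in the table, 1981 matched a label, among them all 126 labelled TAP, and 603 were not used. Symbols came from the given annotation for 35455 of 35606 gene IDs. Groups follow the labels, and the source of the cell type labels is not given in the sources used here. If they rest on these transcriptomes, p-values between types describe labelled types only.

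Counts were summed per type, letter and arm (at least 3 cells, 22 sums of 901249 to 11652393 counts) and scaled to CPM. A fit with edgeR 4.0.16 (R 4.3.3, TMM, filterByExpr) took type and library stratum (pC with pD, pE, pM, pJ naive, pJ 2 d), left 14 residual degrees of freedom and tested 14351 genes at an adjusted p of 0.05. An SE is the log2 fold change divided by the square root of F. The scripts were tested on simulated counts of TAP against aNSC. The test recovered 24% of genes changed by 2 log2 units and 59% of those changed by 3. Of its calls, 5.68% were false. A gene that did not pass is therefore not shown to be equal between types. The stratum term takes out level differences between strata. A difference in level between pC and pD, which share a stratum, stays in the spread. P-values thus measure how the differences between types vary over letters and arms, together with that difference in level. The types of a letter may share mice. Sums of the same letter and arm deviated together, with correlations of 0.281 to 0.616 for TAP with aNSC, 0.218 to 0.497 with neuroblasts and 0.266 to 0.543 with qNSC2, against medians of -0.252, -0.185 and -0.248 between different ones. Levels were centred on the mean of each type, which by itself pushes correlations between different letters and arms below 0. TAP of pJ naive had 0.281 with their own aNSC, 0.286 with those of pJ 2 d and 0.295 with those of pM. TAP of every other letter and arm correlated most with their own aNSC. Pairing is thus not shown for each letter and arm, and values with a term for each are given where a call changes.

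Members and gene lists were chosen with earlier results of these data known. Named in every comparison are the 5 markers, and for each type comparison the 6 genes higher and 6 lower with the smallest adjusted p, a log2 change of at least 1, a mean of at least 20 CPM in 1 type and 1 direction in every letter and arm with both types. From each list the 3 with the largest change against aNSC and genes central to its role were added. For the arms, the 6 largest ratios each way with at least 50 CPM and at least as many TAP with counts as without in the higher group were taken. Reads of genes that overlap another on the same strand may be assigned to either, among them Top2a, Slc1a3, Nrxn3, Tuba1a, Pard3b, Gli3, Arap2, Ptprs, Sptan1, Ttc3, Plekha1, Stmn1 and Tspan7. Alternatives were RLE factors, no filter, DESeq2 1.42.0, limma-voom 3.58.1, other terms for letters, other smallest sums, equal totals per cell and leaving out letters. Of the genes these rules name, 1 is not reported here.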

Additional observations from a re-analysis of the deposited data

Results flagged for a closer look

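For 5 named genes the TAP against neuroblast effect differed between the TiCY and KO letters and the WT letters, by edgeR's test of the difference itself with Benjamini-Hochberg adjustment. Genotype, library, letter and sort cannot be told apart in that test. In log2 units, the difference was 6.319 for Myo10, with an effect of 7.59 in TiCY and KO letters and 1.27 in WT letters (adjusted p = 0.01701). In the same order of letters, Mns1 had 9.544 (10.51 and 0.97), Nr2e1 8.782 (10.16 and 1.38), Fabp7 8.068 (9.05 and 0.98) and Tcf7l2 6.319 (7.85 and 1.53), each with an adjusted p of 0.04447. Neuroblasts of pM and pJ were at or near 0 for these genes, so the sizes depend on the small value added to counts and are no bounds.

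Among the 4 WT TAP sums, 1 sum stood far from the others for 5 of 62 measures looked at (levels of named genes and the TAP share), where chance alone gives about 1 in 20. Stmn2 was at 1759 CPM and Sp8 at 228.4 CPM in pC, Fam167a at 72.32 CPM in pE, and Jpt1 at 1045 CPM and Hes5 at 69.51 CPM in pD.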

How the results depend on the processing

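Counts of called genes depended on the test and on letter pJ, and the causes were not tested. Against aNSC (84 genes), no filter gave 532, DESeq2 631, limma-voom 209, the replicate block 190, no term for letters 5, sums of at least 5 cells 53, of at least 2 cells 294 and the WT letters alone 0. Against neuroblasts (117), no filter gave 707, DESeq2 1146, limma-voom 855, the replicate block 250, no term 31, sums of at least 2 cells 345, WT letters alone 0 and TiCY and KO letters alone 519. Against qNSC2 (2147), DESeq2 gave 3458, limma-voom 3251, no term 1030, sums of at least 5 cells 1431, WT letters alone 0 and TiCY and KO letters alone 1093. For the difference between letter sets, the count for aNSC (0) was 3 with no filter, 36 with DESeq2 and 1 with no term. The count for neuroblasts (6) was 24 with RLE factors, 185 with no filter, 343 with DESeq2, 34 with the replicate block, 18 with no term, 0 and 3 with sums of at least 5 and 2 cells, 10 with equal totals and 28 for genes counted in every stratum. The count for qNSC2 (0) was 42 with no filter, 98 with DESeq2, 1 with the replicate block and 1 with sums of at least 5 cells. Leaving out single letters or arms gave 0 to 125 genes against aNSC, 0 to 364 against neuroblasts, 550 to 2192 against qNSC2, and 0 to 0, 0 to 28 and 0 to 2 for the 3 differences. Of 20, 23 and 22 named calls, 0, 0 and 17 held under each of these. Many genes were named for a small adjusted p in the same fit, so these shares do not stand for all calls. Mcm2 against aNSC (0.22) was the named value that changed sign, at -0.11 without pJ 2 d (-0.11 to 0.60 over all left out) and -0.020 in the TiCY and KO letters alone. Over all named genes and alternatives, 1385 values kept their direction and their side of the threshold (without a test, stayed close), 323 lost a call, 53 gained one and 75 values without a test moved. Apart from the 6 genes given with a term for each letter and arm, the replicate block changed no named call. With NSC lineage cells as the denominator the TAP share was 10.7% in pM and 16.4% in pJ naive. Cells with Mki67 were 85.3% at 50000 counts and 86.5% unthinned (77.5% at 20000), and cells with Dcx 39.3% at 10000 counts and 61.9% unthinned (51.7% at 20000). At sums of 3 to 71 cells, a gene at 0 in a sum is not shown to be absent.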

Other observations

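Of 12 tested proneural and early neuronal factors none passed against aNSC (median 0.62), 1 rose and 2 fell against neuroblasts (median -0.69) and 7 rose against qNSC2 (median 2.21). Of 18 polycomb genes, which silence developmental genes through histone marks, none passed against aNSC (median 0.67), 1 rose against neuroblasts (median -0.09) and 3 rose and 2 fell against qNSC2 (median 1.14). Of 18 DNA methylation genes, the same tests gave none against aNSC (median 0.00), none against neuroblasts (median 0.29) and 4 higher against qNSC2 (median -0.04). Of 20 cholesterol synthesis genes 1 fell against qNSC2 (median -0.57) and none passed against aNSC (median -0.07) or neuroblasts (median 0.74). Of 21 oxidative phosphorylation genes 1 rose against qNSC2 (median 0.33) and none passed against aNSC (median 0.24) or neuroblasts (median 0.49). Of 7 tested ependymal genes 4 fell against qNSC2, with a median of -5.71.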
